A study of Mus musculus with 16 samples.

Results

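The nuclear genes for the subunits of oxidative phosphorylation were followed across white adipose tissue (WAT) and liver of mice on a high-fat diet (HFD). Members were protein-coding genes whose symbol begins with Ndufa, Ndufb, Ndufc, Ndufs, Ndufv, Uqcr, Cox4i, Cox5, Cox6, Cox7, Cox8 or Atp5, plus Sdha, Sdhb, Sdhc, Sdhd and Cyc1. This rule took 95 of the 55421 genes listed. Of these, 85 are subunits of the 5 complexes (38 of complex I, 4 of II, 9 of III, 17 of IV and 17 of V). The symbol prefixes also brought in 8 complex I assembly factors (Ndufaf genes), the supercomplex factor Cox7a2l and the accessory gene Atp5s. The rule itself uses no expression value, although it was set with earlier results of these data known.

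The 16 RNA-seq libraries fell into 8 groups of 2, set by tissue, genotype and treatment, all from C57BL/6 mice. Every group carried the floxed GPR132 allele. GPR132fl/fl mice (fl/fl below) served as genotype controls. Lyz2_cre+/_GPR132fl/fl mice (CKO below) also carried Cre driven by Lyz2, a gene of myeloid cells. Mice of each genotype received either vehicle or NOX_6_18, which the study design describes as an antagonist. The labels name macrophages of WAT or liver as the source of the RNA, but also state that the tissue itself was frozen. Ages, doses and treatment times were not known here. No label ties the 2 libraries in a group to different animals, and the tests therefore compare differences with a spread that may be technical only.

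The complexes work in a chain in the inner mitochondrial membrane. Complexes I and II pass electrons from NADH and succinate to coenzyme Q, complex III passes them on to cytochrome c, and complex IV hands them to oxygen, while complex V uses the resulting proton gradient to make ATP. Complexes I, III, IV and V combine nuclear subunits with a few that the mitochondrial genome encodes, whereas all of complex II is nuclear. Several complex IV subunits have alternative isoforms with restricted expression, in heart and skeletal muscle, in lung or in testis.

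Library totals ran from 45624957 to 60761705 counts, and 94 members in WAT and 91 in liver passed the filter on low counts. Values below are CPM (counts per 1000000 of the library), scaled within a tissue by the trimmed mean of M values (TMM), and calls are adjusted p under 0.05 in the quasi-likelihood test of edgeR. The targeted gene did not separate the genotypes. In WAT, Gpr132 stood at 72.5 and 69.7 CPM (fl/fl on vehicle), 60.3 and 60.1 in fl/fl on NOX_6_18, 35.6 and 64.6 in CKO on vehicle, and 56.5 and 59.1 in CKO on NOX_6_18. In liver it stood at 4.26 and 4.04, 2.13 and 1.64, 1.86 and 1.46, and 2.81 and 2.41 CPM in the same order, so that fl/fl on NOX_6_18 lay as low as the libraries labelled CKO. Macrophage markers were present in every library, but in WAT of fl/fl on vehicle the fibroblast list summed to 22257 to 22828 CPM against 11735 to 12662 for the macrophage list, and in liver the endothelial list (5214 to 6212 CPM) exceeded the macrophage list (3011 to 3319 CPM). A mixed source means that fewer cells of a type and less RNA per cell cannot be told apart in any value below.

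The WAT libraries of fl/fl on vehicle stood apart from the other 6 WAT libraries, and every WAT comparison with that group rests on them. They held 25039 to 25702 detected genes against 30393 to 31289. Spermatid markers (14 genes) summed to 33.1 to 39.5 CPM in them and to 1259 to 1387 CPM in the other 6, and 14 of 14 were called higher on NOX_6_18 in fl/fl. Over the same libraries, spermatocyte markers summed to 6.41 to 6.63 CPM against 351 to 358 CPM (10 of 10 called higher in that comparison), Leydig cell markers to 30.3 to 31.7 against 269 to 315 CPM, and epididymal epithelium markers to 365 to 412 against 1044 to 1134 CPM. The fibroblast list summed to 22257 to 22828 CPM in the 2 libraries and 11683 to 11985 CPM in the other 6, the macrophage list to 11735 to 12662 and 8737 to 9074 CPM, and the white adipocyte list to 4806 to 5062 and 2532 to 2813 CPM. On NOX_6_18 in fl/fl, 7 of 8 fibroblast markers were called lower, 10 of 15 macrophage markers lower and 3 higher, and 4 of 12 white adipocyte markers lower and 5 higher. The part of these markers in the results on the WAT members was not tested.

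The nuclear members took 0.477 to 0.529% of all counts across the 8 WAT libraries and 0.232 to 0.259% across the 8 liver libraries. The 13 mitochondrially encoded subunits took 2.25 to 3.53% of WAT counts and 42.3 to 44.5% of liver counts. Of nuclear counts alone, the nuclear members took 0.493 to 0.544% in WAT and 0.421 to 0.455% in liver. There were 4.68 to 5.01 mitochondrial counts per nuclear member count in WAT of fl/fl on vehicle and 6.50 to 6.91 in the other WAT groups. In liver this ratio was 189 to 192 in fl/fl on vehicle and 163 to 178 in the other groups, so the other groups lay above vehicle-treated fl/fl in WAT and below it in liver.

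**Figure D1:**
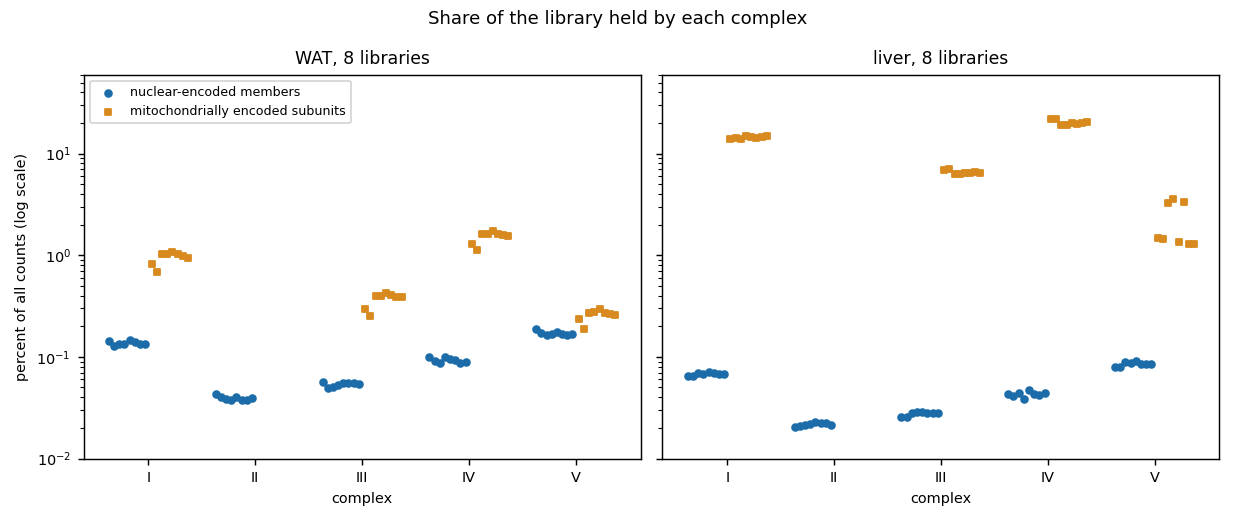
Percent of all counts (log axis) taken by the nuclear members and by the mitochondrially encoded subunits of each complex, 1 point per library, with the 8 WAT and the 8 liver libraries in separate panels. Mitochondrially encoded subunits take 42.3 to 44.5% of liver counts and 2.25 to 3.53% of WAT counts, while the nuclear members stay under 0.6% in every library.

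Levels can be compared between genes only per kilobase of exon, and on that scale (CPM per kb, scaled over all 16 libraries; mean ± SD, n = 2) complex IV held the highest member in both tissues. Cox6a1, the widely expressed isoform of subunit 6a, stood at 164 ± 15.2 in WAT and 152 ± 7.33 in liver of fl/fl on vehicle. Atp5a1, the alpha subunit of the ATP synthase head, led complex V at 96.2 ± 4.57 in WAT and 89.2 ± 0.429 in liver, followed by the catalytic beta subunit Atp5b at 90.03 ± 4.23 and 75.2 ± 0.596. Complex I was led by Ndufa8 (44.4 ± 4.60 in WAT, 52.3 ± 1.97 in liver). Complex III was led in WAT by Uqcr10 at 51.4 ± 6.47, and in liver Uqcrb (36.7 ± 5.94) and Uqcr10 (36.6 ± 0.683) differed by less than their spread. In complex II the succinate dehydrogenase anchor Sdhd led in WAT at 42.2 ± 2.56, ahead of the flavoprotein Sdha at 38.3 ± 0.406, and Sdha led in liver at 41.9 ± 1.16. In this group, fl/fl on vehicle, the median subunit per kb was lowest in complexes I and IV (14.4 and 15.04 in WAT, 13.4 and 16.1 in liver) and highest in complexes II and III (30.02 and 30.8 in WAT, 25.8 and 27.6 in liver). In the other 3 WAT groups the median of complex IV was higher, at 22.2 to 25.4, and that order did not hold. This median covers all 17 subunits, among them the testis isoforms described below, which were higher in those groups. The lower quartile of complex IV went from 0.941 in fl/fl on vehicle to 10.3 to 12.02. Its highest and next highest members were instead lower there: Cox6a1 at 138 to 144, and Cox8a at 82.4 to 88.03 against 110 in fl/fl on vehicle. The part of the testis isoforms in the median was not tested.

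The mitochondrially encoded share also varied within liver, in complex V. It was 1.29 to 1.47% of counts in 5 liver libraries and 3.27 to 3.54% in the other 3. The gene behind this, mt-Atp6, was singled out after its values were seen. It stood at 9400 and 9985 CPM per kb in liver of fl/fl on vehicle, 50068 and 56327 in fl/fl on NOX_6_18, 8560 and 53504 in CKO on vehicle, and 8459 and 8195 in CKO on NOX_6_18. The pair of libraries of CKO on vehicle was thus split, and the gene was not called in any liver comparison. Its neighbour mt-Atp8, whose reading frame overlaps that of mt-Atp6, ran from 61526 to 72329 CPM per kb in the same libraries, and mt-Atp6 in WAT ran from 1497 to 2160.

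The complex IV isoform pairs gave the largest differences among the members. Cox6b2, the testis isoform of subunit 6b, stood at 3.58 and 2.95 CPM in WAT of fl/fl on vehicle, 19.1 and 24.0 in fl/fl on NOX_6_18, 25.3 and 27.4 in CKO on vehicle, and 24.9 and 24.6 in CKO on NOX_6_18. Its widely expressed counterpart Cox6b1 stood at 68.8 and 72.5, 54.96 and 54.8, 63.9 and 55.3, and 50.2 and 60.4 CPM in the same order. Cox6b2 was low in the 2 libraries of fl/fl on vehicle and higher in each of the other 6, without overlap, whereas Cox6b1 was highest in those 2. Cox6b2 rose on NOX_6_18 in fl/fl by 2.73 on the log2 scale (SE 0.16, edgeR adjusted p = 3.96e-06) and Cox6b1 fell by 0.36 (SE 0.11, edgeR adjusted p = 0.0309).

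Cox7b2 and Cox8c, the testis isoforms of subunits 7b and 8, were nearly undetected in WAT of fl/fl on vehicle. Cox7b2 stood at 0.0906 and 0 CPM there, 8.91 and 7.29 in fl/fl on NOX_6_18, 9.90 and 9.62 in CKO on vehicle, and 8.61 and 9.56 in CKO on NOX_6_18. Cox8c stood at 0.181 and 0.531, 25.1 and 27.2, 25.2 and 23.3, and 23.1 and 21.8 CPM. Both were far above the vehicle-treated fl/fl libraries in the other 6. Summed over the group, Cox7b2 had 4 counts in fl/fl on vehicle and 921 in fl/fl on NOX_6_18, a ratio of 191 (95% interval 74.5 to 704, counting error only), and 1091 in CKO on vehicle, a ratio of 232 (90.3 to 853). Cox8c had 35, 2995 and 2716 counts, ratios of 71.1 (51.0 to 102) and 66.0 (47.3 to 94.9). The fold changes of both were called (edgeR adjusted p = 9.85e-06 for Cox7b2 and 1.54e-06 for Cox8c on NOX_6_18 in fl/fl), but their fitted size depends on the prior count. Both genes passed the filter on low counts only through the WAT libraries where they were high. Their calls here and in later comparisons therefore add no support beyond the counts.

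In liver all 8 libraries held 0 counts of Cox7b2 and Cox8c, which allows up to 0.0494 to 0.0658 CPM per library, and Cox6b2 stood at 0.174 to 0.611 CPM. Against liver of fl/fl on NOX_6_18, with a floor of 3 counts over the group, Cox7b2 in WAT of fl/fl on NOX_6_18 was at least 136-fold higher and Cox8c at least 442-fold higher. The other restricted isoforms were scarce: Cox8b reached at most 0.272 CPM, Cox6a2 0.666 CPM and Cox7a1 between 0.254 and 1.20 CPM. None of these 3 was called in a comparison within a tissue, and Cox8b was too low to be tested in liver. Other testis paralogs of metabolic genes, listed after their values were seen, summed to 9.23 to 10.1 CPM in WAT of fl/fl on vehicle and 422 to 474 CPM in the other 6 WAT libraries, and 6 of them were called higher on NOX_6_18 in fl/fl. The spermatid list, given above, summed to 0.794 to 3.28 CPM in liver.

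**Figure D2:**
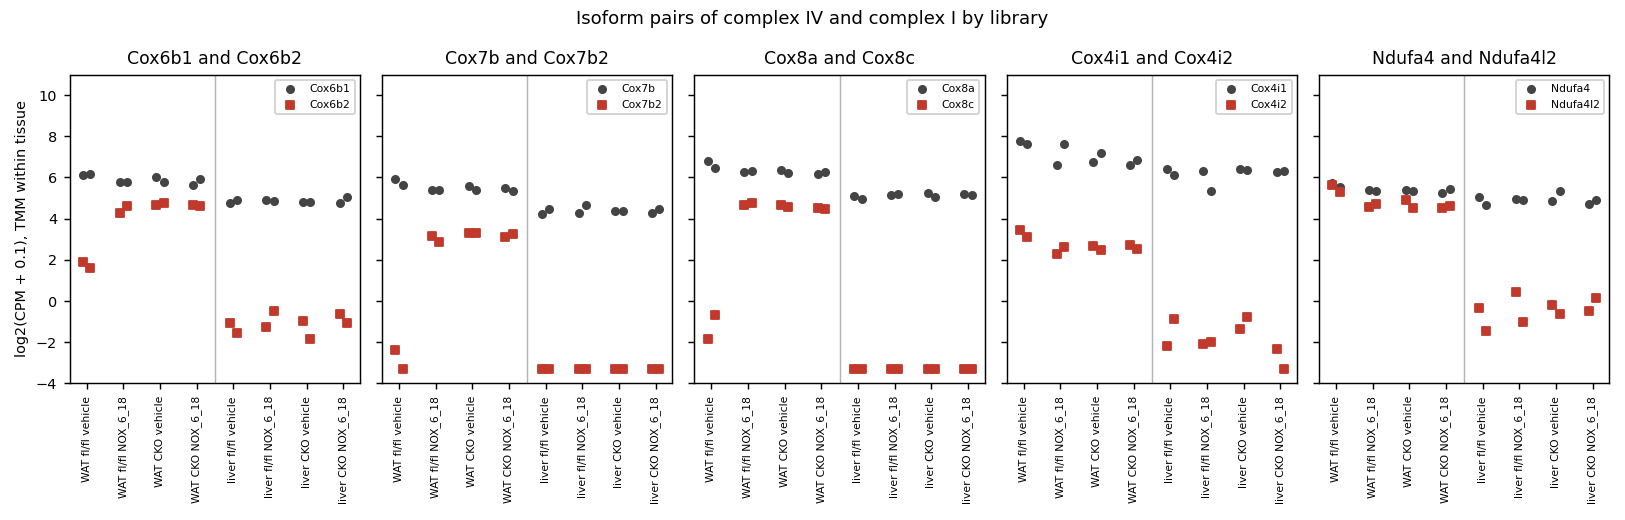
Level of 5 isoform pairs in every library, as log2 of CPM with a small constant added, for the 4 WAT and the 4 liver groups of 2 libraries. CPM is scaled within each tissue. Cox6b2, Cox7b2 and Cox8c are low in WAT of fl/fl on vehicle and high in the other 6 WAT libraries, while Cox6b1, Cox7b and Cox8a stay between 40.2 and 111 CPM in WAT.

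Cox4i2 and Ndufa4l2, paralogs of Cox4i1 and Ndufa4 that respond to low oxygen, moved the other way in WAT. Cox4i2 stood at 10.8 and 8.60 CPM in WAT of fl/fl on vehicle, 4.82 and 5.98 in fl/fl on NOX_6_18, 6.34 and 5.56 in CKO on vehicle, and 6.41 and 5.75 in CKO on NOX_6_18. Ndufa4l2 stood at 49.96 and 39.5, 23.9 and 26.5, 29.7 and 23.2, and 22.9 and 24.5 CPM. For both genes the 2 libraries of fl/fl on vehicle lay above each of the other 6. Cox4i2 fell by 0.85 (SE 0.19, edgeR adjusted p = 0.00872; 0.0699 without fl/fl NOX_6_18 replicate 1) and Ndufa4l2 fell by 0.83 (SE 0.15, edgeR adjusted p = 0.00359) on NOX_6_18 in fl/fl. Reads of Ndufa4l2 are uncertain because its exons overlap those of Shmt2. Mural cell markers, which were listed after their values were seen and are named here because these paralogs are known from vessel-associated cells, summed to 2148 to 2303 CPM in fl/fl on vehicle and 1207 to 1307 CPM in the other 6 WAT libraries. On NOX_6_18 in fl/fl, 6 of 7 were called lower, among them Rgs5 at -0.86 and Pdgfrb at -1.03, and their part in the result was not tested. Of 12 genes induced by hypoxia, 2 were lower and none higher.

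The partners Cox4i1 and Ndufa4 were not called in WAT. Cox4i1, whose exons overlap those of Emc8, stood at 221 and 199 CPM for fl/fl on vehicle, 96.7 and 195 in fl/fl on NOX_6_18, 107 and 148 in CKO on vehicle, and 97.9 and 114 in CKO on NOX_6_18. The libraries of fl/fl on NOX_6_18 differed 2.02-fold from each other, and the difference of -0.53 (SE 0.29) had an edgeR adjusted p of 0.194. Ndufa4 stood at 52.6 and 46.3 CPM in vehicle-treated fl/fl and at 38.5 to 44.0 CPM in the other 6 libraries, a difference of -0.25 (SE 0.10, edgeR adjusted p = 0.0774) on NOX_6_18 in fl/fl.

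Promoters are shown for Sdhd, which fell in WAT, and for both members of the pairs Cox6b1 and Cox6b2 and Cox7b and Cox7b2, which moved apart there. Windows of 300 bases (250 before and 50 after the start; RefSeq, GRCm38.p6) could be matched for 76 of the 95 members. Motifs of 4 factors known to act on such genes were searched on both strands. NRF1 (GCGCA, any base, GCGC) had a match in 19 of the 76 members (25%), against 4.6% of all promoters and 7.17% of protein-coding genes. GABP (CCGGAAG) matched 18 (23.7%, against 8.86% and 12.9%), YY1 (AAGATGGC) 11 (14.5%, against 2.75% and 3.57%) and ERR (TCAAGGTCA) 2 (2.63%, against 0.423% and 0.377%). These 2 were Atp5g3 and Sdhd, and the match in Sdhd lies in the 50 bases after the start. By complex, NRF1 matched 9 members of complex I, 2 of II, 1 of III, 1 of IV and 6 of V. A match is a description of the letters, not of binding. The 250 bases before the start are printed 5′ to 3′ on the strand of the gene, with matches in capitals (CTTCCGG is the GABP motif read on the other strand). They lie at chr9:50603850-50604099 (Sdhd, minus strand), chr7:30626115-30626364 (Cox6b1, minus), chr7:4753095-4753344 (Cox6b2, minus), chrX:106015450-106015699 (Cox7b, plus) and chr5:71548206-71548455 (Cox7b2, minus).
Sdhd: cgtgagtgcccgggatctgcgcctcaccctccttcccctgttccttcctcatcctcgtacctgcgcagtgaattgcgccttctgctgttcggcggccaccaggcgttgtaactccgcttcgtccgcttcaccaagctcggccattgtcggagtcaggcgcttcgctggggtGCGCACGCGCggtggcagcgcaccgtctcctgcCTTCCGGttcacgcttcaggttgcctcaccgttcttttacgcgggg
Cox6b1: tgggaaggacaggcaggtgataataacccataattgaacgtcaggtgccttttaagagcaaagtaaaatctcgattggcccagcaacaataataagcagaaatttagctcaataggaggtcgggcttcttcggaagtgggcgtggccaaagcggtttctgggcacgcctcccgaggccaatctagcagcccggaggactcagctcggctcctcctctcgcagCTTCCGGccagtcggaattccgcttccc
Cox6b2: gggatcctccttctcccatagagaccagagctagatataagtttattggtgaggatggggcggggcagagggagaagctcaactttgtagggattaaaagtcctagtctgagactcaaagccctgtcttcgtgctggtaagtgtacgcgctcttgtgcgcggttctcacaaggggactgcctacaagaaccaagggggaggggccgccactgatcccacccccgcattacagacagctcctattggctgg
Cox7b: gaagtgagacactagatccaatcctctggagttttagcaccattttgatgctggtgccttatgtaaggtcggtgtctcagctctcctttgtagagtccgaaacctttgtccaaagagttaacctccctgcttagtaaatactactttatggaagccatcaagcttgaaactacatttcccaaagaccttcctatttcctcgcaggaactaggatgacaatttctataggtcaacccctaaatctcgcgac
Cox7b2: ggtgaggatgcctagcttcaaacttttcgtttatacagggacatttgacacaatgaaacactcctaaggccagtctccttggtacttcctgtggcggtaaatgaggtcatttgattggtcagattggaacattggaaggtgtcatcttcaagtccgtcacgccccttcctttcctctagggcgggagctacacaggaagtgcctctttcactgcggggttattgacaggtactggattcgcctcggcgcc
Sdhd holds an NRF1 match and a GABP match, and Cox6b1 a GABP match near the start. Sdhb, which also fell in WAT, is not printed. Its 250 bases before the start held none of the 4 motifs, and its GABP match lay in the 50 bases after the start. Cox6b2, Cox7b and Cox7b2 hold none of the 4 motifs in the letters printed, so the windows of Cox7b and Cox7b2 are alike in this respect while their levels moved in opposite directions.

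NOX_6_18 against vehicle in fl/fl asked how the tissue differed with the antagonist in mice without Cre. In WAT, 29 of 94 members fell (30.9%) and 4 rose (4.26%), where 13.2% of all tested genes fell and 24.6% rose. The members' median log2 fold change was -0.25 (interquartile range -0.34 to -0.09), against 0.12 over all genes. Every complex had members that fell, by less than 1 on the log2 scale, and the 4 that rose were the 3 testis isoforms above and the assembly factor Ndufaf3. Among the 76 tested subunits outside the 8 tissue isoforms, 27 fell and none rose by edgeR (1 was higher at an unadjusted p under 0.05). The counts depend on the scaling: with library totals alone 7 rose and 7 fell, with a trend on GC and length removed 6 and 53, and with libraries then recentred 4 and 88. All-gene medians moved with it, to 0.286, 0.347 and -0.433. The members' median stayed negative in each of these fits and was -0.09 with library totals. Leaving out single libraries also moved the count, to 7 without fl/fl NOX_6_18 replicate 1, 11 without fl/fl NOX_6_18 replicate 2, 11 without fl/fl vehicle replicate 1 and 39 without fl/fl vehicle replicate 2.

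**Figure D3:**
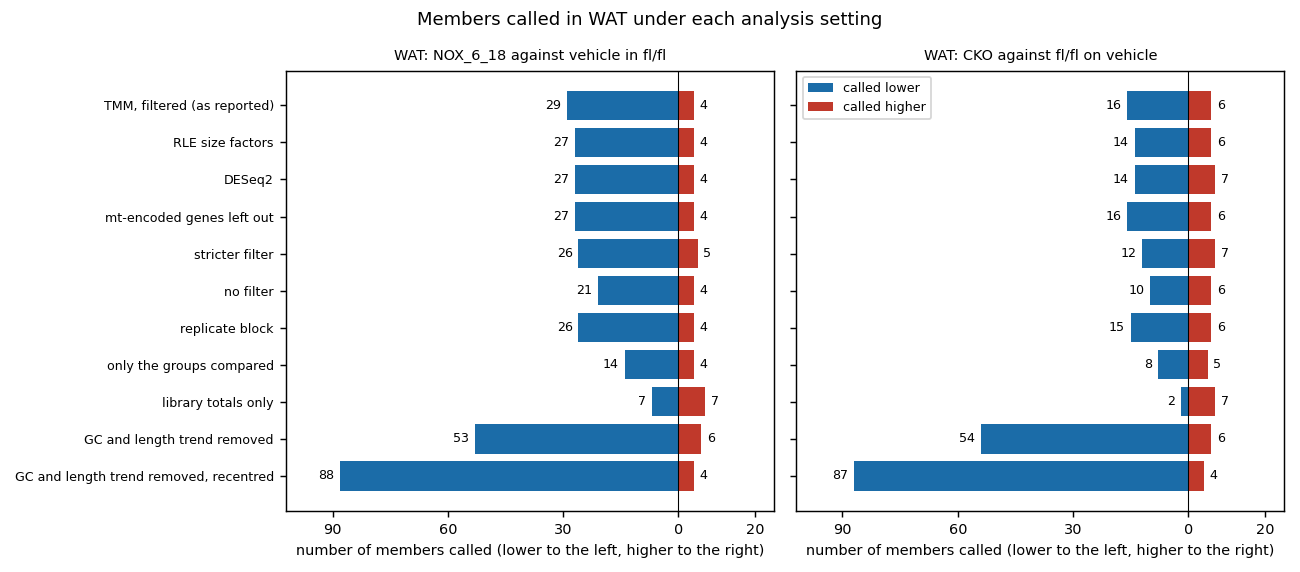
Number of members called higher and lower in WAT under each way of processing, for NOX_6_18 against vehicle in fl/fl and for CKO against fl/fl on vehicle. The count called lower ranges from 7 to 88 in the first comparison and from 2 to 87 in the second, with the fewest under library totals alone and the most after recentring.

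Complex II was the complex in which each subunit fell. The iron-sulfur subunit Sdhb stood at 75.6 and 66.1 CPM in vehicle-treated fl/fl and 48.5 and 53.6 in fl/fl on NOX_6_18, a fall of 0.47 on the log2 scale (SE 0.10, edgeR adjusted p = 0.00634). The anchor Sdhd went from 79.6 and 71.7 to 57.0 and 54.997 CPM, and fell by 0.43 (SE 0.08, edgeR adjusted p = 0.00301). The other anchor Sdhc went from 83.9 and 72.3 to 64.7 and 61.4 CPM and the flavoprotein Sdha from 231 and 230 to 202 and 199 CPM. In each of the 4 genes both treated libraries lay below both vehicle libraries, as they did in 62 of the 94 members tested. The share of all genes that did so is not given here. The fall was smallest in Sdha (-0.20) and was -0.31 in Sdhc. The call of Sdhb was lost without fl/fl NOX_6_18 replicate 1 (edgeR adjusted p = 0.0559).

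In complex I, 8 of 38 subunits fell (median -0.25). Ndufa4 and Ndufa4l2 are counted here by their symbols, although the NDUFA4 protein is now placed in complex IV. Besides Ndufa4l2, the largest was Ndufa13, an accessory subunit whose exons overlap those of Tssk6 (-0.44, edgeR adjusted p = 0.00681). The iron-sulfur core subunit Ndufs8 went from 37.0 and 39.4 to 30.4 and 26.8 CPM (-0.42, SE 0.09, edgeR adjusted p = 0.00922). Among the 10 assembly and accessory factors 1 was called, Ndufaf3, and their median was 0.01. Ndufaf3 stood at 8.58 and 8.50 CPM for fl/fl on vehicle, 30.4 and 23.8 in fl/fl on NOX_6_18, 31.3 and 27.7 in CKO on vehicle, and 30.3 and 31.5 in CKO on NOX_6_18. It rose by 1.67 (SE 0.14, edgeR adjusted p = 3.38e-05), but its exons overlap those of Impdh2 and its counts are uncertain for that reason. In liver Ndufaf3 ran from 3.42 to 5.52 CPM and was not called.

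In complex III, 3 of 9 subunits fell (median -0.22). Uqcr11, a small subunit, went from 36.0 and 30.7 to 25.9 and 24.4 CPM (-0.41, SE 0.11, edgeR adjusted p = 0.0235), and lost its call in 3 of the 8 omissions of a library (edgeR adjusted p up to 0.146). Uqcr10 fell by 0.40 (edgeR adjusted p = 0.0238). The core protein Uqcrc2 went from 100.6 and 95.4 to 76.7 and 76.9 CPM (-0.35, SE 0.07, edgeR adjusted p = 0.00455). Uqcrq did not follow, at 49.5 and 37.8 CPM in vehicle-treated fl/fl and 46.7 and 47.7 in fl/fl on NOX_6_18 (0.11, SE 0.13, edgeR adjusted p = 0.537).

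In complex IV, 6 of 17 subunits fell and 3 rose (median -0.24). Outside the pairs above, the widely expressed Cox8a went from 111 and 88.0 to 77.1 and 79.5 CPM (-0.34, SE 0.11, edgeR adjusted p = 0.0452) and Cox7b from 61.1 and 50.4 to 42.4 and 41.4 CPM (-0.41, SE 0.12, edgeR adjusted p = 0.0239). Cox6a1 went from 181 and 156 to 138 and 141 CPM (-0.27, edgeR adjusted p = 0.0369). All 3 were among the 62 of 94 members that were lower in both treated libraries. Cox7a2 (28.6 to 37.6 CPM over the 8 WAT libraries) and the supercomplex factor Cox7a2l (117 to 144 CPM) were not called.

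In complex V, 8 of 16 tested subunits fell (median -0.28). The second copy of the ring subunit c, Atp5g2, went from 81.0 and 68.6 to 49.3 and 56.5 CPM (-0.50, SE 0.11, edgeR adjusted p = 0.00824), a call lost without fl/fl NOX_6_18 replicate 1 (edgeR adjusted p = 0.0671). Its paralog Atp5g3 went from 97.2 and 81.3 to 67.7 and 73.7 CPM and fell by 0.34. The remaining paralog Atp5g1 was at 35.0 and 40.8 and then at 25.02 and 35.4 CPM, overlapping between the groups, with a difference of -0.33 (SE 0.18, edgeR adjusted p = 0.195). All 3 copies encode the same mature peptide. The stalk subunit Atp5c1 fell by 0.38 (edgeR adjusted p = 0.00262), Atp5b by 0.25 (edgeR adjusted p = 0.0113) and Atp5a1 by 0.24 (edgeR adjusted p = 0.0169).

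**Figure D4:**
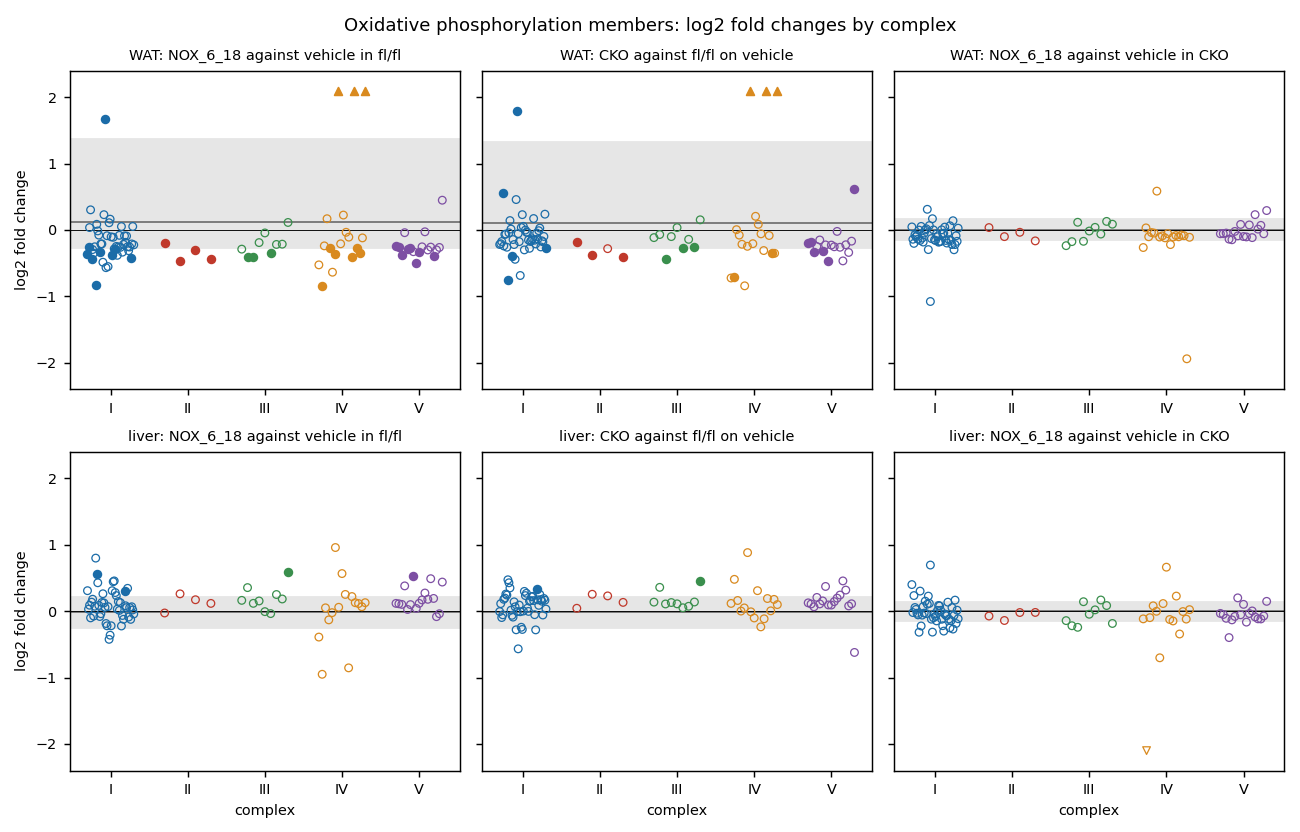
Log2 fold change of every tested member by complex in 6 comparisons, with called members filled, the grey band and line marking the interquartile range and median of all tested genes, and triangles marking values beyond the axis. In WAT on NOX_6_18 in fl/fl the members' median is -0.25 against 0.12 for all genes, and in liver it is 0.11 against a value near 0.

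The mitochondrially encoded subunits differed in sign from the nuclear ones in this comparison: 8 of 13 rose (median 0.25), among them mt-Nd4l by 0.53 (edgeR adjusted p = 0.00037), which overlaps a neighbouring gene, mt-Nd5 by 0.38 and mt-Cytb by 0.37. Of the neighbouring nuclear pathways, 6 of 14 genes of the tricarboxylic acid cycle fell and 1 rose; citrate synthase Cs stood at -0.35 and fumarase Fh1 at -0.34. In fatty acid oxidation 9 of 16 fell, such as Acadl (-0.46) and Cpt1a (-0.38), and Cpt1b, the muscle form that is also found in testis, rose by 2.82. Among inner membrane transporters 5 of 10 fell, Ucp2 by 0.54 and the adenine nucleotide carrier Slc25a5 by 0.48, and the testis carrier Slc25a31 rose by 4.18. The electron carriers and coenzyme Q genes had 2 higher and 1 lower of 15, the higher ones being the testis cytochrome c Cyct (4.96) and Coq4 (0.99). Further assembly factors had 2 higher and 5 lower of 44, and the transcriptional regulators 2 higher (Esrrg, Tfb1m) and 2 lower (Esrra at -0.50, Gabpa at -0.22) of 13.

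Lower values were not limited to the mitochondrion. Of 90 cytoplasmic ribosomal protein genes 58 fell and 3 rose (median -0.31), and of 78 mitochondrial ribosomal protein genes 12 fell and 3 rose (median -0.20). The members are short, with a median exon length of 1578 bases against 3958 over protein-coding genes tested in WAT, while their GC content was 50.9% against 50.1%. Protein-coding genes of 500 to 1000 bases had a median of 1.34 in this comparison, where the 21 members of that length had -0.31. For genes of 1000 to 2000 bases the medians were 0.24 and -0.25. The short genes include some, such as Cox7b2, that passed the filter only through the WAT libraries other than fl/fl on vehicle. Under a stricter filter the median of all genes was 0.05, against 0.12 in the main fit. The part of length in the members' values was not tested.

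CKO against fl/fl on vehicle compared libraries by their genotype labels, without the antagonist. Loss of the receptor was not seen in Gpr132, which did not separate the genotypes. The comparison uses the same vehicle-treated fl/fl libraries as the one above, so the 2 are not independent. In WAT 16 of 94 members fell and 6 rose, where 12.4% of all genes fell and 24.4% rose. The median was -0.17 (interquartile range -0.26 to -0.03), against 0.10 over all genes. Calls lower were spread over complex I (3 of 38), II (3 of 4), III (3 of 9), IV (2 of 17) and V (5 of 16). With library totals alone 7 rose and 2 fell, with that GC and length trend removed 6 and 54, and recentred 4 and 87. The all-gene median was then 0.264 for library totals and 0.333 for the trend removed. The count of falls was 6 without fl/fl vehicle replicate 1, 26 without fl/fl vehicle replicate 2, 7 without CKO vehicle replicate 1 and 5 without CKO vehicle replicate 2.

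Complex II again had the largest share of falls. Sdhd stood at 57.8 and 56.8 CPM in CKO on vehicle (-0.40, SE 0.08, edgeR adjusted p = 0.00471), and Sdhb at 55.8 and 53.8 (-0.37, edgeR adjusted p = 0.0198). Sdha, at 209 and 196 CPM, fell by 0.19, and Sdhc, at 68.4 and 60.1, had a difference of -0.28 that was not called (edgeR adjusted p = 0.0564). The 4 complex II genes thus lay below fl/fl on vehicle in both libraries, as did 45 of the 94 members tested, while 10 lay above and 39 overlapped. As before, the share of all genes is not given here, so nothing particular to the members can be read from the count. Ndufa4l2 fell by 0.76 (SE 0.15, edgeR adjusted p = 0.00571), Cox4i2 by 0.71 (SE 0.19, edgeR adjusted p = 0.0197), Atp5g2 by 0.47 (SE 0.11, edgeR adjusted p = 0.0113) and Uqcr11 by 0.43 (SE 0.11, edgeR adjusted p = 0.0192). Of these, Uqcr11 and Cox4i2 each lost their call in 3 of the 8 omissions of a library and Atp5g2 in 2.

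Of the 6 that rose, Cox6b2 (3.01, edgeR adjusted p = 2.27e-06), Cox7b2, Cox8c and Ndufaf3 (1.79, edgeR adjusted p = 2.2e-05) are described above. The complex I accessory subunit Ndufa12 went from 12.7 and 11.5 CPM to 18.4 and 17.2 CPM (0.56, SE 0.11, edgeR adjusted p = 0.00586). Atp5s, at 6.14 and 4.25 CPM in vehicle-treated fl/fl and 7.58 and 8.28 in CKO on vehicle, had 0.61 (SE 0.19, edgeR adjusted p = 0.0373) and lost its call in 7 of 8 omissions of a library. Of the mitochondrially encoded subunits 8 of 13 rose (median 0.30). Among other pathways, 5 genes of the tricarboxylic acid cycle and 7 of fatty acid oxidation fell with 1 rise in each, and of 90 cytoplasmic ribosomal protein genes 37 fell and 3 rose.

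Between the WAT groups other than fl/fl on vehicle, no member was called. For NOX_6_18 against vehicle in CKO, edgeR called no member; 3 were lower and 0 higher at an unadjusted p under 0.05, DESeq2 called 1 lower, and 0.0116% of all genes were called lower and 0.00387% higher. The median was -0.08 (interquartile range -0.15 to 0.00). For CKO against fl/fl on NOX_6_18, edgeR and DESeq2 both called no member, 1 was higher and 2 lower at an unadjusted p under 0.05, and 0.0155% of all genes were called higher and 0.0193% lower. The median was 0.01. Complex II illustrates this: in CKO on NOX_6_18 Sdhb stood at 48.5 and 53.8 CPM, Sdhd at 50.6 and 51.8, Sdhc at 61.7 and 63.8, and Sdha at 204 and 211. These values overlapped or lay close to those of CKO on vehicle and of fl/fl on NOX_6_18.

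The treatment by genotype interaction tested whether the response to NOX_6_18 differed between CKO and fl/fl. In WAT 6 members were called higher and 4 lower, against 6.71% and 18.6% of all genes, with a median of 0.18 against -0.11. The 4 lower were Cox8c (-6.26), Cox6b2 (-2.82, SE 0.21, edgeR adjusted p = 2.75e-05), Cox7b2 (-7.61) and Ndufaf3 (-1.60, SE 0.19, edgeR adjusted p = 0.000417). Cox7b2 and Cox8c passed the filter only through WAT groups other than fl/fl on vehicle, so their calls add no support beyond the counts. The 6 higher were Cox4i2 (0.88), Atp5g2 (0.58), Uqcr11 (0.52), Atp5l (0.40), Uqcrc2 (0.39) and Atp5c1 (0.33). A negative value marks a difference from vehicle that was more positive in fl/fl than in CKO. The contrast includes fl/fl on vehicle, whose libraries stood apart from the other 6. A response to NOX_6_18 cannot be told apart here from what set that group apart. The higher calls ranged from 0 to 15 when single libraries were left out, and were 0 with library totals, 43 after removal of the GC and length trend and 82 after recentring. The lower calls were 4 or 5 in each omission of a library.

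In liver few members were called in the comparisons with fl/fl on vehicle, at shares not far from those of all genes. On NOX_6_18 in fl/fl 4 of 91 members rose, against 3.78% of all genes higher and 1.74% lower, and no member was called lower by edgeR or DESeq2 (14 higher and 0 lower at an unadjusted p under 0.05). The median was 0.11 (interquartile range -0.02 to 0.24). The cytochrome bc1 subunit Uqcrq stood at 22.2 and 19.9 CPM for fl/fl on vehicle, 29.6 and 33.6 in fl/fl on NOX_6_18, 30.3 and 27.2 in CKO on vehicle, and 24.2 and 26.3 in CKO on NOX_6_18. It lay lowest in the 2 libraries of fl/fl on vehicle, and rose on NOX_6_18 in fl/fl by 0.59 (SE 0.11, edgeR adjusted p = 0.0160). The ring subunit gene Atp5g1 stood at 10.8 and 10.8, 16.4 and 14.8, 13.6 and 14.3, and 16.8 and 15.3 CPM, and rose by 0.53 (SE 0.11, edgeR adjusted p = 0.0278). Both genes were above vehicle-treated fl/fl liver in each of the other 6 libraries. On NOX_6_18 in fl/fl, 36 of the 91 members were higher in both treated libraries than in both vehicle libraries, 6 were lower in both and 49 overlapped. These shares over all genes are not given here, so nothing particular to the members can be read from the count.

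The complex I subunit Ndufa5 stood at 8.42 and 9.18 CPM in liver of fl/fl on vehicle, 13.2 and 12.6 in fl/fl on NOX_6_18, 11.6 and 12.01 in CKO on vehicle, and 9.81 and 10.46 in CKO on NOX_6_18. It rose by 0.55 (SE 0.12, edgeR adjusted p = 0.0308). The 2 vehicle-treated fl/fl libraries were the lowest of the 8. These calls are near the threshold: without single libraries the count of members called higher was 0 to 3, and Ndufa5 lost its call in each of the 8 omissions (edgeR adjusted p 0.0529 to 0.161). Spermatid and spermatocyte markers were at or near 0 in these liver libraries (at most 3.28 and 0.589 CPM in sum), but other lists moved between fl/fl on vehicle and the other 6. Neutrophil markers summed to 18.4 to 22.9 CPM against 94.4 to 104.8 CPM, erythroid markers to 7665 to 8084 against 4100 to 4510 CPM, and B cell markers to 31.8 to 33.5 against 13.1 to 17.3 CPM. Kupffer cell markers summed to 1296 to 1317 against 1521 to 1580 CPM, endothelial markers to 5214 to 5218 against 6007 to 6212 CPM, and hepatocyte markers to 2993 to 3139 against 3371 to 3475 CPM. On NOX_6_18 in fl/fl liver, 6 of 9 neutrophil markers were called higher and 5 of 7 erythroid markers lower, and the part of these lists in the results was not tested.

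Complex II in liver showed no called member. Sdha stood at 118 and 123 CPM in vehicle-treated fl/fl and 115 and 121 in fl/fl on NOX_6_18. Sdhb stood at 26.5 and 28.0 and then at 30.7 and 34.6 CPM (0.26, SE 0.09, edgeR adjusted p = 0.140). Sdhd stood at 28.8 and 29.6 and then at 31.2 and 32.2 CPM (0.12, SE 0.08, edgeR adjusted p = 0.517). The differences of Sdhb and Sdhd were positive in liver where the same genes fell in WAT. Of the mitochondrially encoded subunits, 3 of 13 fell in liver on NOX_6_18 in fl/fl: mt-Co3 by 0.29, mt-Co1 by 0.18 and mt-Cytb by 0.15. Outside the members, 4 of 12 hypoxia-induced genes rose, and of 87 cytoplasmic ribosomal protein genes none was called.

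**Figure D5:**
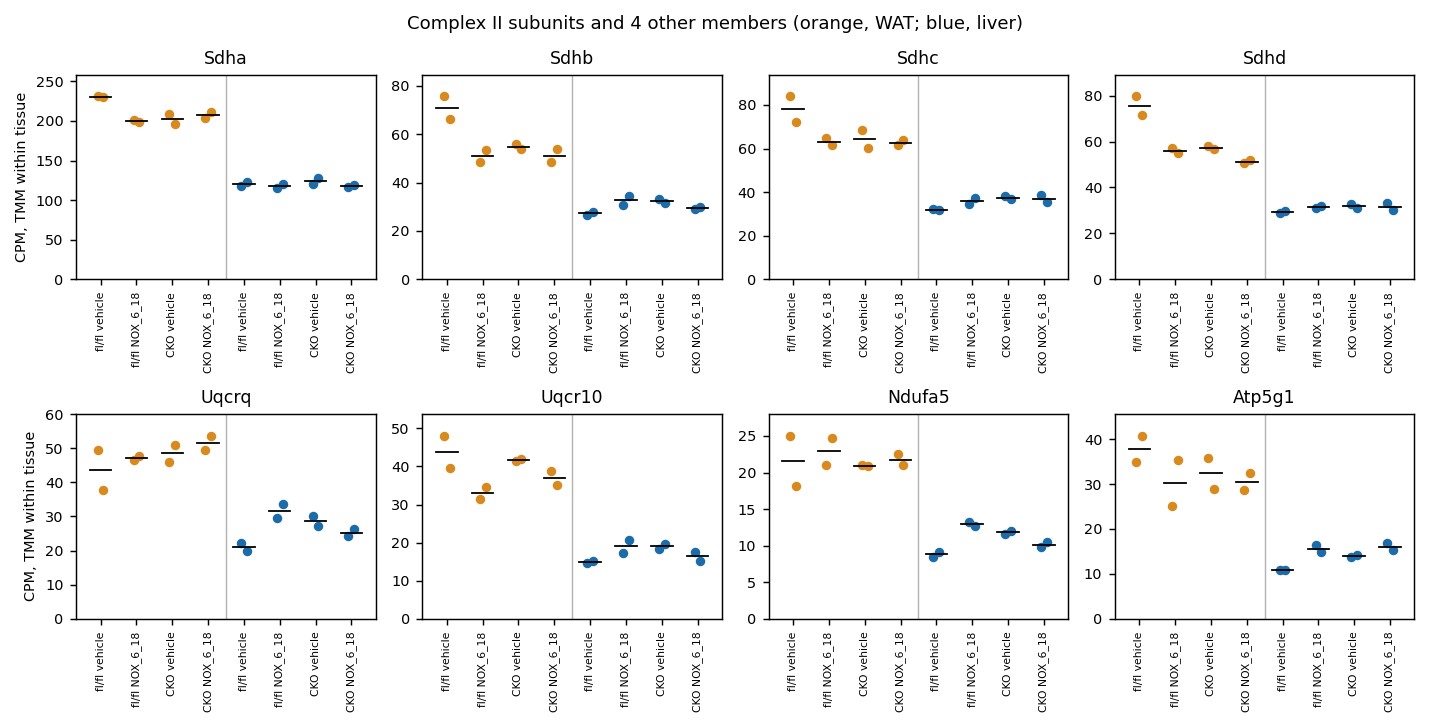
CPM in every library for the 4 complex II genes, Uqcrq, Uqcr10, Ndufa5 and Atp5g1, with a line at each group's mean of 2 libraries, WAT in orange and liver in blue. Among WAT libraries the complex II genes are highest in fl/fl on vehicle. Among liver libraries Uqcrq, Ndufa5 and Atp5g1 are lowest in fl/fl on vehicle. CPM is scaled within each tissue, so heights cannot be compared between WAT and liver.

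CKO against fl/fl on vehicle in liver, which again shares the vehicle-treated fl/fl libraries, had 2 members higher and none lower by edgeR or DESeq2, against 3.96% and 1.83% of all genes (14 higher and 2 lower at an unadjusted p under 0.05). Among them was Uqcrq (0.45, SE 0.11, edgeR adjusted p = 0.0468), which lost its call in each of the 8 omissions of a library. The median was 0.13. Neither NOX_6_18 in CKO nor CKO against fl/fl on NOX_6_18 had a member called by edgeR or DESeq2. At an unadjusted p under 0.05, 1 was higher and 2 lower in the first and 4 lower in the second, and in each 0.0256% of all genes were called higher and 0.0102% lower. The interaction called 1 member lower, Uqcrq (-0.77, SE 0.15, edgeR adjusted p = 0.0364), against 1.87% of all genes lower and 0.584% higher, and that call too was lost in each omission of a library.

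WAT against liver was fitted over all 16 libraries, and the split of calls depends on the scaling. In fl/fl on vehicle 24 members were higher in WAT and 1 lower, against 21.6% and 16.5% of all genes, with a median of 0.17. Ndufa4l2 (5.44, SE 0.47, edgeR adjusted p = 1.13e-06) and Cox4i2 (4.09, SE 0.57, edgeR adjusted p = 8.55e-05) stood far above liver, where they ran from 0.265 to 1.27 and from 0 to 0.487 CPM. Next came Cox6b2 (2.30, edgeR adjusted p = 0.000226) and Atp5g1 (0.75, SE 0.17, edgeR adjusted p = 0.00315). Cox8c had the largest called rise in complex IV (6.88), from 35 counts in WAT of fl/fl on vehicle and none in liver. It passed the filter only through the other WAT groups, so its call adds no support beyond the counts. The size depends on the prior count. Uqcr10 (0.49) and Sdhb (0.31, SE 0.09, edgeR adjusted p = 0.0178) were also higher, and the acyl carrier Ndufab1 was lower (-0.38, SE 0.13, edgeR adjusted p = 0.0422), a call lost in 14 of 16 omissions. With library totals alone 88 were higher and 0 lower, after a shift of the all-gene median by 0.944, and with recentring 8 and 12. All 13 mitochondrially encoded subunits were lower in WAT (median -5.12), and of 90 cytoplasmic ribosomal protein genes 71 were higher and 1 lower.

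Over the mean of the other 3 groups the balance lay the other way: 15 members were higher in WAT and 41 lower, against 44.7% and 25.1% of all genes, with a median of -0.16 against 0.33. All 4 complex II genes and 6 of 9 of complex III were lower in WAT, as were 17 of 38 of complex I, 3 of 17 of complex IV and 8 of 16 of complex V. Sdhb stood at -0.33, Uqcrb at -0.39, Atp5h at -0.44 and Ndufaf4 at -0.82, and Cox6b2 (4.87) and Ndufa4l2 (3.95) were higher. Cox8c was also higher (12.9), again against liver libraries without a count of it. With library totals the split was 91 and 0, after a shift by 1.10 of the all-gene median, and with recentring 6 and 84, so in neither tissue comparison did the split of calls keep its direction under each scaling.

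The difference between tissues in the response to NOX_6_18 in fl/fl was tested in the same fit. Here 21 of 94 members were lower, meaning a more negative response in WAT, and 2 were higher, against 7.2% and 7.52% of all genes, with a median of -0.34 against 0.15. Complex II had 3 of 4 lower, complex III 3 of 9, complex V 9 of 16 and complex I 6 of 38, while complex IV had none lower by edgeR and 1 higher. Sdhb had -0.73 (SE 0.13, edgeR adjusted p = 0.00253), Sdhd -0.55 (SE 0.10, edgeR adjusted p = 0.00395), Atp5g1 -0.86 (SE 0.23, edgeR adjusted p = 0.0271), Uqcr10 -0.75 (SE 0.17, edgeR adjusted p = 0.0105) and Ndufb3 -0.74 (SE 0.20, edgeR adjusted p = 0.0255). The 2 higher were Ndufaf3 (1.61, SE 0.32, edgeR adjusted p = 0.00453) and Cox6b2 (2.21, SE 0.51, edgeR adjusted p = 0.0116). Sdhb and Sdhd kept their calls in every omission of a library, and the count lower ranged from 6 without WAT fl/fl NOX_6_18 replicate 1 to 28 without WAT fl/fl vehicle replicate 2. With library totals 2 were higher and 2 lower, with that GC and length trend removed 3 and 45, and after recentring 0 and 79.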

How the data were processed

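The authors deposited raw read counts per gene for 16 libraries. HISAT, featureCounts 1.5.0, DESeq 1.8.3 and GRCm38 are listed without roles, per the submitters' processing notes; neither the annotation release nor the strand setting is given in the sources used here. Identifiers were matched to GENCODE M21 (55240 of 55421; unmatched genes held at most 0.0173% of a library). Calls came from edgeR 4.0.16 under R 4.3.3 (quasi-likelihood test), with TMM factors, filterByExpr by group, the 8 libraries of a tissue in 1 fit (16 between tissues) and Benjamini-Hochberg adjustment over all tested genes (25871 in WAT, 19515 in liver, 26751 over both). Mitochondrial ratios use untransformed counts. Promoters came from RefSeq (GRCm38.p6), for 76 of 95 members. Exons of 33 members overlap another gene.

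Members and lists were chosen with earlier results of these data known. The genes named were, per comparison and complex, the called member with the largest rise and the largest fall, and the 3 with the smallest adjusted p; the highest member per kilobase of each complex; the isoform families; Sdha to Sdhd; up to 4 called genes per list; and Gpr132. Others were named after their values were seen. Intervals and floors (3 counts) cover counting error only. Alternatives were other scalings and filters, DESeq2 1.42.0, a GC and length trend (linear regression), only the groups compared, a replicate block and leaving out each library. Fits were tested on simulated data. The values of 1 member that the rule names are not reported here.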

Additional observations from a re-analysis of the deposited data

Results flagged for a closer look

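The results below are those in which a test of the difference itself found that a response differed between genotypes or between tissues (edgeR quasi-likelihood test, Benjamini-Hochberg adjusted p under 0.05 over all genes).

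In WAT the response to NOX_6_18 differed between CKO and fl/fl for 6 members that were higher and 4 that were lower in the interaction, of 94 tested. Over all genes 6.71% were called higher and 18.6% lower, so the members' counts did not exceed the background. The lower ones were Cox7b2 (-7.61), Cox8c (-6.26), Cox6b2 (-2.82) and Ndufaf3 (-1.60). The first 3 are testis isoforms of complex IV that were low in fl/fl on vehicle and at a like level in the other 3 WAT groups, where spermatid markers summed to 1259 to 1387 CPM. Cox7b2 and Cox8c passed the filter on low counts only through those 3 groups. Among the higher ones were Cox4i2 (0.88), Atp5g2 (0.58) and Uqcr11 (0.52), whose calls were lost in 7, 5 and 7 of the 8 omissions of a library.

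In liver the interaction had 1 of 91 members lower (1.87% of all genes), Uqcrq (-0.77), with an edgeR adjusted p of 0.0364 and of 0.0507 to 0.130 with single libraries left out.

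Between the tissues the response to NOX_6_18 in fl/fl differed for 2 members that were higher in WAT and 21 that were lower, of 94 tested, against 7.52% and 7.2% of all genes. The higher ones were Cox6b2 (2.21) and Ndufaf3 (1.61). Among the lower ones were Atp5g1 (-0.86), Uqcr10 (-0.75), Ndufb3 (-0.74), Sdhb (-0.73) and Sdhd (-0.55). Ndufb3 lost its call in 7 and Atp5g1 in 5 of the omissions of a library. Uqcr10 lost its call without WAT fl/fl NOX_6_18 replicate 1 (edgeR adjusted p = 0.0531), and Cox6b2 without liver fl/fl vehicle replicate 1 (edgeR adjusted p = 0.116) and after recentring. Sdhb, Sdhd and Ndufaf3 lost theirs in none of the 16. Under other scalings Sdhd lost its call with library totals, and Ndufaf3, whose exons overlap those of Impdh2, lost its call after recentring.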

How the results depend on the processing

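Numbers of members called changed with the scaling and, in liver too, with the libraries kept. With library totals alone, higher and lower calls were 7 and 7 in WAT on NOX_6_18 in fl/fl, 88 and 0 for WAT against liver in fl/fl on vehicle, and 91 and 0 over the other 3 groups; lower calls were 2 in WAT for CKO on vehicle and 2 for the tissue difference in response, higher calls 0 in the WAT interaction and 1 in liver for CKO on vehicle. With the GC and length trend removed, lower calls were 53 (WAT NOX_6_18 in fl/fl), 54 (WAT CKO on vehicle), 4 and 65 (tissues, fl/fl on vehicle and the other 3 groups), 45 (response) and 0 (liver interaction), and higher calls 43 (WAT interaction), 2 (liver NOX_6_18 in fl/fl) and 1 (liver CKO on vehicle). Recentred as well, lower calls were 88, 87, 12, 84, 79 and 0 in that order, and higher calls 82, 2 and 0, with 8 and 6 for the tissues and 0 for the response. Fitting only the groups compared gave 14 and 8 lower in WAT, 1 and 1 higher in liver, 12 higher for the tissues and 11 lower for the response; it could not be run for the interactions within a tissue. Without a filter 10 were lower (WAT CKO), 2 higher (WAT interaction), 0 lower (tissues) and 12 lower (response); a stricter filter gave 3 lower for the liver interaction and for the tissues. DESeq2 gave 1 lower (WAT NOX_6_18 in CKO), 3 lower (liver interaction), 2 lower (tissues) and 4 higher (response). Without members that share exons, 3 were higher in the WAT interaction, 1 in liver for CKO, 15 and 0 for the tissues, 26 lower over the other 3 groups, and 1 and 13 for the response; with subunits alone 1 was higher in the response. Except for the smaller member lists and fewer libraries, the cause was not tested.

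These values changed sign: recentred, Atp5s in WAT for CKO on vehicle (-0.68) and over the other 3 groups (-0.40), and the tissue median in fl/fl on vehicle (-0.037); with library totals, the tissue median over the other 3 groups (0.95), Ndufab1 (0.57), Ndufaf4 (0.28), Sdhb (0.77), Uqcrb (0.72), Cox5a (0.81) and Atp5h (0.66). The cause was not tested. Of the values of single named genes under all alternatives, 1029 kept direction and side of the threshold, 154 kept direction alone and 8 changed sign.

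With single libraries left out, higher and lower calls ranged from 4 to 6 and 7 to 39 (WAT NOX_6_18 in fl/fl), 5 to 8 and 5 to 26 (WAT CKO on vehicle), 0 to 0 and 0 to 0 (the comparisons within CKO or on NOX_6_18, both tissues), 0 to 15 and 4 to 5 (WAT interaction), 0 to 3 and 0 to 1 (liver NOX_6_18 in fl/fl), 0 to 1 and 0 to 1 (liver CKO on vehicle and liver interaction), 12 to 31 and 0 to 2 (tissues, fl/fl on vehicle), 14 to 15 and 36 to 45 (other 3 groups), and 1 to 2 and 6 to 28 (response). A group left with 1 library was assumed to vary like the others.

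Same-numbered libraries did not deviate together: correlations of their deviations ran from -0.03 to 0.11 in WAT and from -0.04 to -0.003 in liver, so the numbers were not taken as pairs. With a replicate block, lower calls were 26, 15 and 4 in the WAT comparisons with calls, and higher calls 3 and 1 in liver, where the interaction had 0.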
